A study of Homo sapiens with 24 samples.

Results

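The genes described here are the 8 that encode the enzymes from glyceraldehyde-3-phosphate to lactate: GAPDH, PGK1, PGAM1, ENO1, ENO2, PKM, LDHA and LDHB. They were chosen by symbol, and all 8 were found among the 23106 genes of the count files. Gene counts were available for 4 human cancer cell lines, A549 (lung), HCT-116 (colorectal), PC3 (prostate) and T47D (breast), kept in 21% oxygen (normoxia) or in 0.5% oxygen (hypoxia) for 16 h, with 3 libraries of polyadenylated RNA in each of the 8 groups. None of the lines carried a further treatment or a genetic change by the labels. A549 and PC3 cells were grown in F12K, HCT-116 cells in McCoy's 5a and T47D cells in DMEM, so that a difference between lines and a difference between media cannot be told apart, except between A549 and PC3. The study used these libraries to ask which genes respond to hypoxia, and to the hypoxia-inducible factors (HIF), in many cancer types.

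In this stretch of glycolysis, GAPDH reduces NAD+ while it oxidizes glyceraldehyde-3-phosphate, phosphoglycerate kinase 1 (PGK1) makes ATP, phosphoglycerate mutase 1 (PGAM1) moves the phosphate group, enolase removes water to give phosphoenolpyruvate, and pyruvate kinase (PKM) makes ATP again and releases pyruvate. Lactate dehydrogenase then reduces pyruvate to lactate and returns NAD+ to GAPDH, which lets glycolysis run without respiration. It is a tetramer of the LDHA (muscle) and LDHB (heart) subunits, of which LDHA favors lactate formation and LDHB the reverse reaction. ENO1 is the widely expressed enolase and ENO2 the neuronal one. Many genes of this pathway are textbook targets of HIF, which binds the core motif RCGTG, where R stands for A or G.

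By the GENCODE annotation of GRCh37, GAPDH (chr12:6643683-6647537), ENO2 (chr12:7023744-7032860) and LDHB (chr12:21788276-21810776) lie on chromosome 12. LDHA (chr11:18416110-18429972), ENO1 (chr1:8921059-8938745), PGAM1 (chr10:99185948-99193201), PKM (chr15:72491370-72523531) and PGK1 (chrX:77359745-77384792) lie apart. Counts are given per gene, so that the PKM1 and PKM2 splice forms of PKM are summed. Fragments without a unique position had been excluded, and GENCODE lists 65 processed pseudogenes of GAPDH, 13 of PGAM1 and between 0 and 6 of each other member by symbol, so the levels of members with such copies are uncertain. LDHB shares 997 exonic bases with a same-strand readthrough gene and GAPDH 422 with an antisense transcript, neither of which is counted in the files.

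The 300 bases before the start of the main transcript are shown for the pairs of isozyme genes, LDHA with LDHB and ENO1 with ENO2, whose shares are compared below. They are given 5′ to 3′ on the strand of the gene from GRCh37, with capitals at each ACGTG or GCGTG on either strand (CACGT or CACGC when read from the other strand), and overlapping matches counted as 1 place. The windows are chr11:18415810-18416109 on the plus strand for LDHA, chr12:21810777-21811076 on the minus strand for LDHB, chr1:8938746-8939045 on the minus strand for ENO1 and chr12:7023444-7023743 on the plus strand for ENO2.
LDHA: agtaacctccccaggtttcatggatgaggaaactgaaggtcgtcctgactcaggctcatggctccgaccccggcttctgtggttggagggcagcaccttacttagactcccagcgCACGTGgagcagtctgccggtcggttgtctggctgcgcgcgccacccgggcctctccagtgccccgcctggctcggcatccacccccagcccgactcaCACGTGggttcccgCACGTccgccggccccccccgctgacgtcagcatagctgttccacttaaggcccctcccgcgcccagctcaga
LDHB: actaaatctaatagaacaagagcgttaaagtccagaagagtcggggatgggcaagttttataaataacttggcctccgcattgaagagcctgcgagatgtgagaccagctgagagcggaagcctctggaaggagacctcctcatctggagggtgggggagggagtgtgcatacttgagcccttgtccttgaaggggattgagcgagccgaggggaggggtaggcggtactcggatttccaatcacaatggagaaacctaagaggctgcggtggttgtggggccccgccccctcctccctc
ENO1: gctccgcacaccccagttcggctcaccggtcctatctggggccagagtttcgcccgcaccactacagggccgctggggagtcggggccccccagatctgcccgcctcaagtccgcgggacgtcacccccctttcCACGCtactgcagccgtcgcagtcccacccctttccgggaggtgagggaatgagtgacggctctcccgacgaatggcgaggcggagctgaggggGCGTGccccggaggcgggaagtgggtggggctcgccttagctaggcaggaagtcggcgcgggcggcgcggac
ENO2: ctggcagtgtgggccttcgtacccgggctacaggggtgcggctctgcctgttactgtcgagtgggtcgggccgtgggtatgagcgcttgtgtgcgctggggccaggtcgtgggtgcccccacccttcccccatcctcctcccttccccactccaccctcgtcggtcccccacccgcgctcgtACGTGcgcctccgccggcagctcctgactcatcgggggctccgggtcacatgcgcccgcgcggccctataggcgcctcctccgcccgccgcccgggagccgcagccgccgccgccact
The LDHA window held 3 places, at 185 to 180, 87 to 82 and 73 to 69 bases before the start, and the first and second of these are the palindrome CACGTG. LDHB held none, ENO1 held 2 and ENO2 held 1. Among the other members, GAPDH and PGK1 held 3 each, PGAM1 held 2 and PKM held 0. Thus 6 of 8 members held at least 1 place, against 56.9% of 18536 promoter windows of the same length. At least 3 places were found in 9.91% of these windows and CACGTG in 8.98%, which among the members only the LDHA window held. A match of letters is not a measured binding site. The study did measure HIF binding, by chromatin immunoprecipitation sequencing. It reported ENO1, LDHA, PGAM1, PGK1 and PKM as HIF-bound and raised by hypoxia in every line it used. GAPDH was among the genes it reported as bound and raised in all but 1 of its lines. A gene counted as bound there when it was among the closest genes to a binding site, so the site need not lie in these windows.

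The libraries held 22698584 to 62850747 counts, and a floor of 3 counts corresponded to 0.0477 to 0.132 CPM, the unit of levels used here, which is the count scaled to the size of its library. All 5 breast markers checked (ESR1, FOXA1, GATA3, PGR and TFF1) were over 1 CPM in T47D cells. Of 5 markers each, only CDX2 passed 1 CPM in HCT-116 cells and only AKR1B10 in A549 cells, with VIL1 and SFTPC among those at or under 1 CPM. In PC3 cells the prostate markers KLK2 and KLK3 were at or under 1 CPM. Of 5 fibroblast markers COL1A1 alone passed 1 CPM, in each line, and of 5 leukocyte markers at most 1 did.

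In hypoxia, 7 of these genes rose in at least 3 of the 4 lines, and LDHB rose in none of the 3 in which it could be tested. The 8 genes together took 2.05% ± 0.0636 (SD, n = 3) of all counts in normoxic A549 cells and 3.69% ± 0.249 in hypoxic ones. The share went from 1.08% ± 0.286 to 3.19% ± 0.308 in HCT-116 cells, from 1.47% ± 0.0207 to 1.98% ± 0.128 in PC3 cells, and from 0.550% ± 0.123 to 2.32% ± 0.106 in T47D cells. In each line the 3 hypoxic shares were above the 3 normoxic ones.

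Calls required an adjusted p under 0.05 in edgeR's quasi-likelihood test, with Benjamini-Hochberg adjustment over all genes tested in the line, and a fold change over 1.2. In A549 cells 7 of 8 members rose and LDHB fell, where 17.6% of all genes tested rose and 17.8% fell. In HCT-116 cells 7 of 8 rose and none fell, against 23.3% and 27.0% of all genes. In PC3 cells 6 of 8 rose and none fell, against 16.6% and 15.7%. In T47D cells all 7 members that could be tested rose, against 6.55% of all genes, while 6.69% fell. LDHB was not tested there because its counts were too low. The study had picked ENO1, LDHA, PGAM1, PGK1 and PKM partly for rising in each line by the same thresholds, from these libraries among others. Their calls here are therefore not independent of that choice. Nor are those of GAPDH, which the study placed among the genes bound and raised in most of its lines. The 3 hypoxic libraries lay above the 3 normoxic ones for the same 7 members in every line, as did 23.3% of all genes in A549, 28.2% in HCT-116, 25.8% in PC3 and 16.7% in T47D cells. The median log2 fold change of the members tested was 1.06 in A549, 1.74 in HCT-116, 0.53 in PC3 and 2.01 in T47D cells, while that of all genes lay between -0.03 and -0.01. Scaling to total counts shifted the median of all genes to -0.13 in A549 and -0.12 in T47D cells, and the split of calls to 1778 higher and 3461 lower in A549 (2452 and 2476 with the trimmed-mean, TMM, scaling used here) and to 666 and 1412 in T47D (922 and 942), with the members' directions as before.

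**Figure D1:**
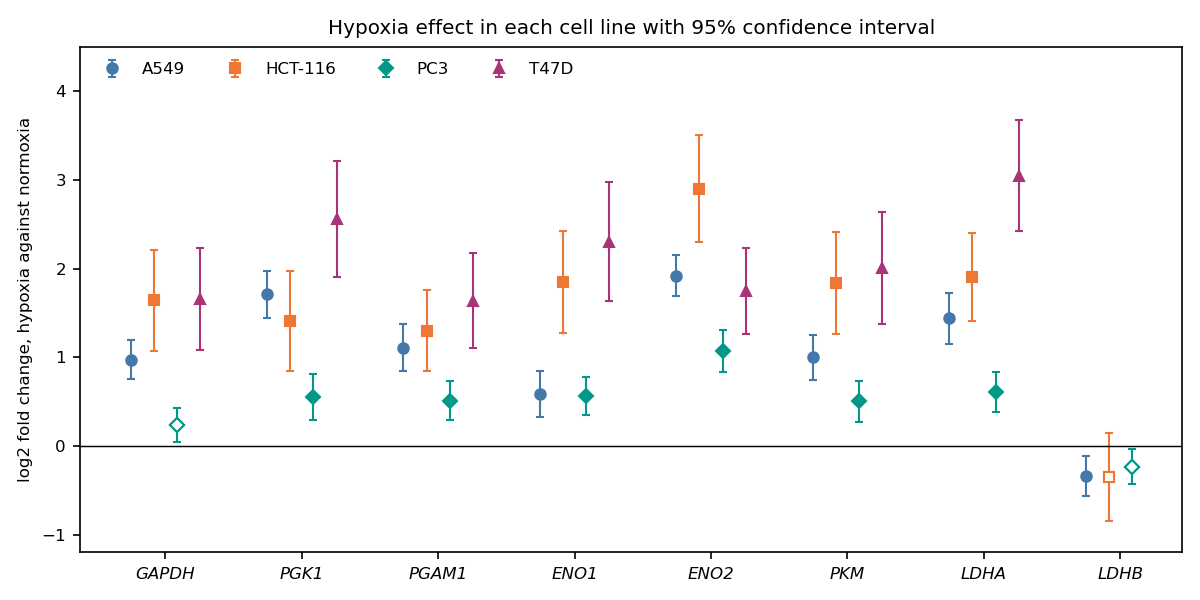
Hypoxia effect on each gene in each line. The vertical axis is the log2 fold change of hypoxia against normoxia from the edgeR fit of that line, bars are 95% confidence intervals, and open symbols did not pass the test. The 7 genes other than LDHB lie above 0 in all 4 lines, PC3 gives the smallest value for each of them, and LDHB, not tested in T47D, lies below 0 in the other lines.

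The largest change among the members was that of LDHA in T47D cells. LDHA stood at 523, 329 and 517 CPM in the normoxic T47D libraries and at 3798, 3698 and 4474 CPM in the hypoxic ones. These levels differed 8.28-fold (log2 fold change 3.05, SE 0.29, edgeR adjusted p = 4.02e-05). T47D had by far the lowest LDHA level in normoxia.
In HCT-116 cells LDHA went from 1087, 1145 and 1436 CPM to 4811, 5420 and 4704 CPM, a 3.76-fold rise (edgeR adjusted p = 1.01e-04). In A549 cells it went from 2843, 2649 and 3026 CPM to 6715, 7195 and 9270 CPM, a 2.71-fold rise (edgeR adjusted p = 1.71e-05). In PC3 cells it went from 3327, 3388 and 3408 CPM to 5964, 4955 and 5046 CPM, a 1.52-fold rise (edgeR adjusted p = 0.00375). The states did not overlap in any line, and the line with the highest mean normoxic level, PC3, had the smallest change. PC3 and A549 cells were, however, not told apart in normoxic LDHA level (edgeR adjusted p = 0.327) or in the change of LDHA (edgeR adjusted p = 0.218).

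LDHB was not called higher in A549, HCT-116 or PC3 cells, where it could be tested. In A549 cells it stood at 2042, 2051 and 1917 CPM in normoxia and at 1520, 1572 and 1681 CPM in hypoxia. The fall to 0.791-fold passed the test (log2 fold change -0.34, SE 0.10, edgeR adjusted p = 0.0228), but it lost its call in 10 of 18 alternatives, including the exclusion of replicate 1 or 2 of either state (edgeR adjusted p = 0.0741 to 0.120). In HCT-116 cells LDHB stood at 1246, 1806 and 2080 CPM in normoxia and 1442, 1486 and 1428 CPM in hypoxia, where the states overlapped (log2 fold change -0.35, SE 0.23, edgeR adjusted p = 0.225). In PC3 cells the values were 513, 496 and 530 CPM against 459, 448 and 454 CPM. The PC3 states did not overlap, but the difference missed the threshold (log2 fold change -0.23, SE 0.09, edgeR adjusted p = 0.0702). After an adjustment for the length and GC content of the transcripts, the LDHB log2 fold change was -0.03 in A549 and turned to 0.48 in HCT-116 (edgeR adjusted p = 0.0582), where adding a replicate block gave 0.50 and a call as higher (edgeR adjusted p = 0.0260), and 0.11 in PC3 cells (edgeR adjusted p = 0.350). The direction of LDHB in HCT-116 and PC3 cells therefore depended on the processing.

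T47D cells had almost no LDHB transcript in either state. The 3 normoxic libraries held 4, 0 and 0 LDHB counts, 4 of 150439102 in all, and the hypoxic ones held 0, 3 and 0, 3 of 176973279 in all. This corresponds to 0.0266 CPM (exact 95% Poisson interval 0.00724 to 0.0681) and 0.0170 CPM (0.00350 to 0.0495), which cover counting error only. In PC3 cells, with the next lowest level, the LDHB share of all counts was 19985 times that of T47D in normoxia (95% interval 7805 to 73348) and 26326 times in hypoxia (9008 to 127660). Whether LDHB changed in hypoxia in T47D cells was not detectable at this depth.

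**Figure D2:**
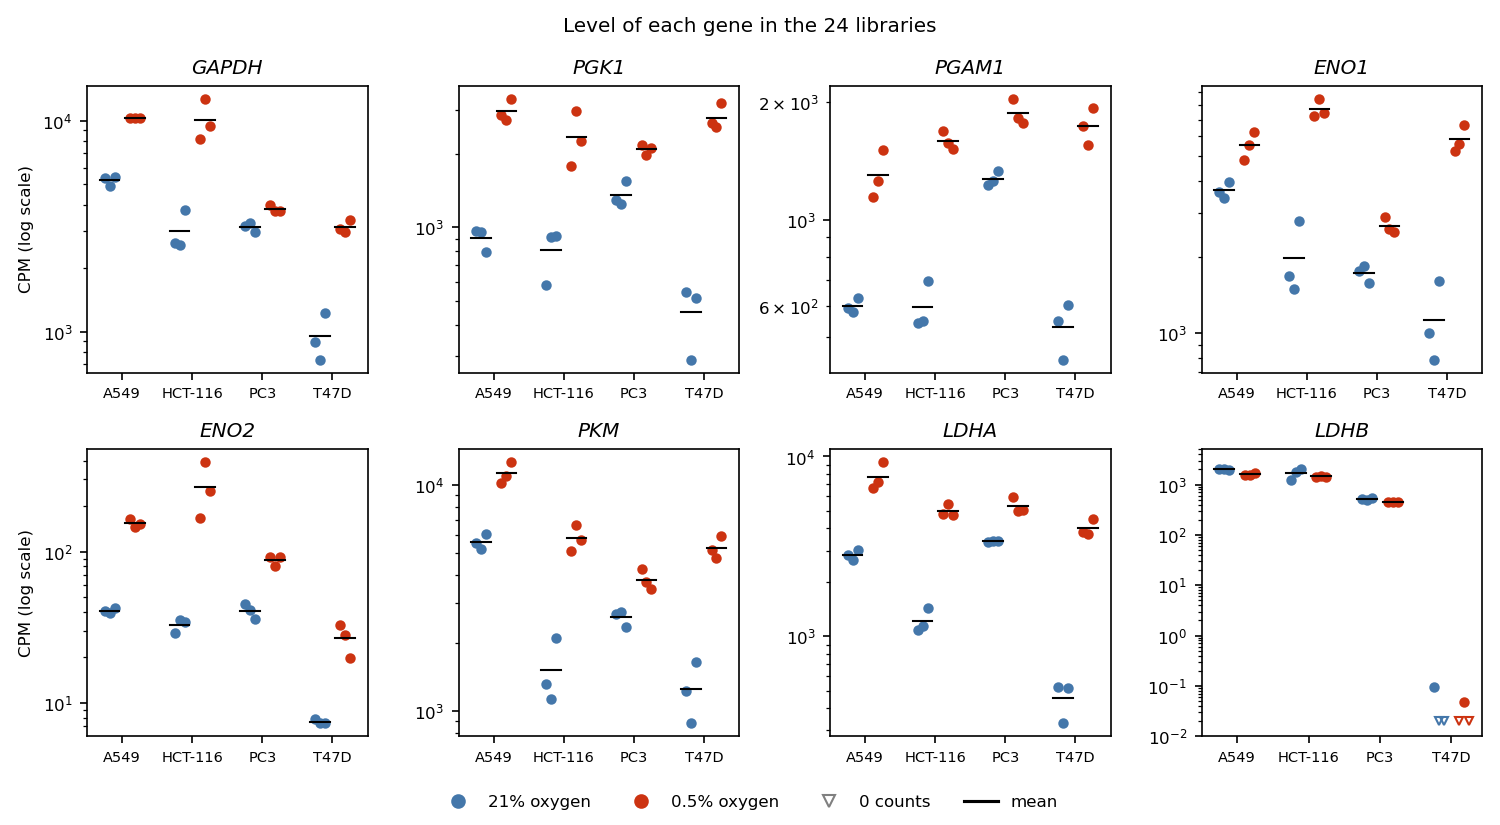
Level of each of the 8 genes in the 24 libraries. The vertical axes are CPM on a log scale, each with its own range, points are libraries, lines are means of 3 libraries, and triangles at the foot of the LDHB plot are libraries with 0 counts. The red points (hypoxia) lie above the blue ones (normoxia) in every line for 7 genes, while LDHB stays between 448 and 2080 CPM in 3 lines and at or under 0.0928 CPM in T47D.

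The makeup of the lactate dehydrogenase transcripts thus differed between lines and states. Levels of different genes were compared per length, as CPM per kilobase of the main transcript, and the LDHA share is the LDHA level divided by that of LDHA plus LDHB. In normoxic HCT-116 cells LDHB was the main form, and LDHA made up 33.7%, 26.9% and 28.7% of the sum. In hypoxia the LDHA share was 66.0%, 68.0% and 65.7%, so the order of both forms was exchanged. In A549 cells the share went from 44.7%, 42.9% and 47.9% to 72.0%, 72.7% and 76.2%. In PC3 cells LDHA already made up 79.1%, 79.9% and 78.9% in normoxia and reached 88.3%, 86.5% and 86.6% in hypoxia. In T47D cells LDHA was the only form found beyond 4 counts in a library, with shares of 99.97% or more. Lengths from the union of exons gave mean shares of 41.2% in normoxic A549 and 26.5% in normoxic HCT-116 cells. Counts without length gave 58.6% and 42.1%, which makes LDHA the larger form in normoxic A549 cells, so the order of LDHA and LDHB in that group depended on the scale.

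The log2 ratio of LDHA to LDHB counts rose by 1.77 in A549, 2.24 in HCT-116, 0.83 in PC3 and 3.35 in T47D cells, on counts with a pseudocount of 0.5. Each line by itself gave no overlap and an exact two-sided permutation p = 0.1, the smallest that 3 against 3 libraries allow. Over the 4 lines the mean rise was 2.05 (exact two-sided permutation test of states within lines, p = 1.25e-05, the smallest it can give). Without T47D, whose ratio rests on the pseudocount, it was 1.61 (exact permutation p = 2.5e-04, again the smallest). The rise differed between A549, HCT-116 and PC3 cells (exact permutation of the 9 same-numbered differences over lines, p = 0.00357, the smallest it can give), but with T47D included the test gave p = 0.267, and with a pseudocount of 5 it gave p = 6.49e-05 (exact permutation). The result with T47D thus depended on the pseudocount and does not decide whether the shift of the ratio differed there. The sum of both genes was higher in hypoxia too, without overlap between states in any line.

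The summed level of both genes in T47D cells was 204 ± 49.1 CPM per kilobase in normoxia (SD, n = 3) and 1780 ± 188 in hypoxia. In HCT-116 cells it was 1858 ± 399 and 3336 ± 195, in A549 cells 2804 ± 42.6 and 4669 ± 668, and in PC3 cells 1900 ± 25.6 and 2723 ± 252. Hypoxic T47D cells were thus near the normoxic level of HCT-116 and PC3 cells, where the libraries' ranges overlapped with HCT-116 cells (1650 to 1996 against 1441 to 2237) and PC3 cells (1878 to 1928).

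**Figure D3:**
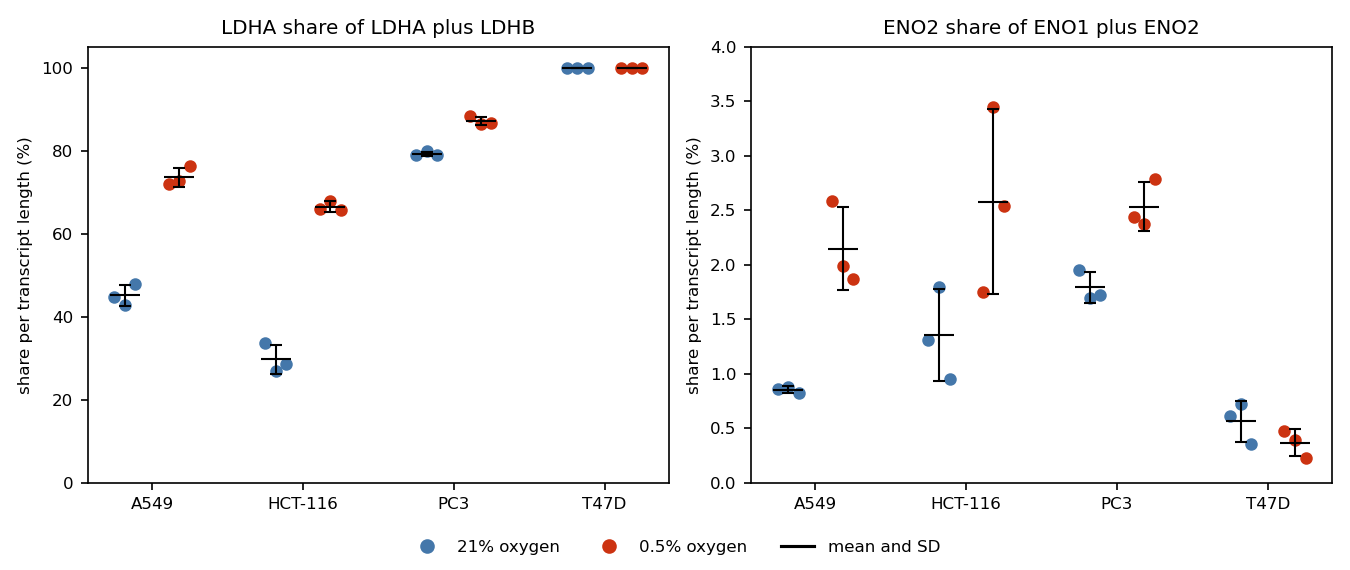
Isozyme shares in each library. The vertical axes are the LDHA share of LDHA plus LDHB (left) and the ENO2 share of ENO1 plus ENO2 (right), in percent of CPM per kilobase of transcript, points are libraries, and bars are the mean and SD of 3 libraries. The LDHA share is higher in hypoxia in A549, HCT-116 and PC3 cells and near 100% in T47D in both states, while the ENO2 share is higher in hypoxia in A549 and PC3 cells and overlaps between states in HCT-116 and T47D cells.

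Both enolase genes rose in all 4 lines. ENO2 went from 28.8, 35.4 and 34.5 CPM to 166, 389 and 250 CPM in HCT-116 cells, a 7.46-fold rise and the second largest among the members. In A549 cells it went from 40.4, 39.3 and 42.4 CPM to 165, 146 and 153 CPM (3.79-fold). In PC3 cells it went from 45.1, 41.1 and 35.7 CPM to 92.5, 80.9 and 92.4 CPM (2.11-fold), which was the largest change of any member in this line. T47D cells started from 7.87, 7.35 and 7.38 CPM, the lowest level of the lines, and reached 32.6, 28.3 and 19.7 CPM (3.36-fold). The edgeR adjusted p of these changes ranged from 2.96e-07 to 4.65e-04.

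ENO1 was far more abundant. It went from 999, 785 and 1603 CPM to 5275, 5585 and 6678 CPM in T47D cells (4.94-fold, edgeR adjusted p = 6.95e-04) and from 1687, 1501 and 2777 CPM to 7228, 8436 and 7439 CPM in HCT-116 cells (3.59-fold, edgeR adjusted p = 2.00e-04). In A549 cells, 3610, 3434 and 3974 CPM in normoxia stood against 4839, 5563 and 6226 CPM in hypoxia (1.5-fold, edgeR adjusted p = 0.00311), a call lost in one fit of all 24 libraries (edgeR adjusted p = 0.0787). In PC3 cells, the values were 1759, 1850 and 1579 CPM against 2870, 2586 and 2503 CPM (1.48-fold, edgeR adjusted p = 0.00391). A549 cells had the highest ENO1 level in normoxia and HCT-116 cells the highest in hypoxia.

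Per length, ENO2 made up a small part of the summed ENO1 and ENO2 level, which leaves out ENO3, in every library, between 0.228% and 3.45%. In A549 cells its share was 0.854% ± 0.0303 (SD, n = 3) in normoxia and 2.15% ± 0.381 in hypoxia, and in PC3 cells 1.79% ± 0.140 and 2.53% ± 0.223, without overlap in these lines. In HCT-116 cells it was 1.35% ± 0.425 and 2.58% ± 0.853, and in T47D cells 0.562% ± 0.187 and 0.366% ± 0.126, with overlap in both lines. The log2 ratio of ENO2 to ENO1 changed by 1.34 in A549, 0.94 in HCT-116, 0.51 in PC3 and -0.63 in T47D cells. These shifts differed between lines (exact permutation of the 12 same-numbered differences, p = 0.00208). The mean shift over lines was 0.54 (exact two-sided permutation of states within lines, p = 0.0257), but it missed the threshold without any 1 of the replicate numbers (exact permutation p = 0.0586 to 0.103). Without replicate 2 of every group, the difference between lines did so as well (exact permutation p = 0.0571).

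GAPDH, often used as a reference gene, was not constant. It rose in HCT-116 cells from 2640, 2567 and 3770 CPM to 8229, 12677 and 9473 CPM (3.12-fold, edgeR adjusted p = 3.27e-04). In T47D cells it rose from 896, 736 and 1220 CPM to 3078, 2968 and 3394 CPM (3.15-fold, edgeR adjusted p = 0.00260), a call lost without normoxic replicate 1 (edgeR adjusted p = 0.0544). In A549 cells it rose from 5379, 4904 and 5426 CPM to 10312, 10305 and 10307 CPM (1.96-fold, edgeR adjusted p = 4.92e-05). PC3 cells were the exception. There, 3166, 3270 and 2956 CPM in normoxia stood against 4007, 3735 and 3738 CPM in hypoxia, without overlap but with an edgeR adjusted p = 0.0580 at 1.18-fold. After the adjustment for length and GC content this difference passed the test (log2 fold change 0.29, edgeR adjusted p = 0.0358).

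PGK1, the first ATP-forming enzyme of the pathway, rose 5.90-fold in T47D cells (edgeR adjusted p = 2.40e-04), from 289 to 545 CPM over the normoxic libraries to 2557 to 3203 CPM over the hypoxic ones. The rise was 3.27-fold in A549, 2.66-fold in HCT-116 and 1.47-fold in PC3 cells. In A549 cells the normoxic libraries lay between 797 and 969 CPM and the hypoxic ones between 2747 and 3337 CPM. PGAM1 rose 3.12-fold in T47D, 2.46-fold in HCT-116, 2.16-fold in A549 and 1.42-fold in PC3 cells. Its normoxic level was highest in PC3 cells (1227 to 1331 CPM) and lay between 437 and 696 CPM in the other lines, which the pairwise tests did not tell apart (edgeR adjusted p = 0.386 to 0.984), while 64.9% of all genes differed between A549 and HCT-116, 66.6% between A549 and T47D and 68.5% between HCT-116 and T47D cells. PKM, whose product is pyruvate, rose 4.02-fold in T47D, 3.58-fold in HCT-116, 2.0-fold in A549 and 1.42-fold in PC3 cells. The PKM level in A549 cells was the highest of the lines in both states, at 5195 to 6079 CPM in normoxia and 10217 to 12611 CPM in hypoxia.

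In PC3 cells most of these changes were small. Of the 6 members that rose there, ENO2 and LDHA passed a fold change of 1.5, so that the count was 2 with that threshold. When all 24 libraries shared one estimate of the spread, the count was 3, without PGK1, ENO1 and PKM (edgeR adjusted p = 0.0905 to 0.123). Of all genes tested in PC3 cells, 2237 of 13466 rose with the main settings. With the threshold of 1.5 it was 1019 of 13466, and in the one fit 867 of 16089.

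The hypoxia effect differed between lines for 7 of 8 members in one edgeR fit of all 24 libraries, where 18.3% of all genes differed. LDHA gave the smallest p value (edgeR adjusted p = 1.31e-05) and PGAM1 the largest of the 7 (edgeR adjusted p = 0.00605). LDHB gave an adjusted p = 0.991, but its effect in T47D cells rests on 0 to 4 counts a library. Without replicate 1 of every group the count of differing members was 3 (PGK1, ENO2 and LDHA), and without replicate 2 it was 2 (PGK1 and LDHA). LDHA and PGK1 therefore kept their call in each of these settings.

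Between pairs of lines, the rise in T47D cells was larger than in PC3 cells for 6 members, with 2.25% of all genes differing between these lines. The difference on the log2 scale was 2.47 ± 0.27 (SE) for LDHA (edgeR adjusted p = 3.02e-06), 2.03 ± 0.32 for PGK1 (edgeR adjusted p = 4.51e-04), and 1.16 to 1.75 for GAPDH, PGAM1, ENO1 and PKM. For ENO2 it was 0.71, with a 95% interval from 0.11 to 1.32 and an edgeR adjusted p = 0.257. HCT-116 cells exceeded PC3 cells for GAPDH, PGAM1, ENO1, ENO2, PKM and LDHA, where 14.9% of all genes differed, with the largest difference for ENO2 (1.90 ± 0.29). These comparisons share the PC3 libraries. ENO2 was also raised more in HCT-116 than in T47D cells, by 1.19 ± 0.29 (edgeR adjusted p = 0.0153), whereas LDHA and PGK1 were raised more in T47D than in HCT-116 cells (by 1.10 ± 0.27 and 1.11 ± 0.32), with 9.07% of all genes differing. The A549 minus T47D difference was -1.68 ± 0.27 (SE) for LDHA (edgeR adjusted p = 7.41e-04) and -1.78 ± 0.33 for ENO1 (edgeR adjusted p = 0.00289). The A549 minus HCT-116 difference was -1.36 ± 0.33 for ENO1, -1.10 ± 0.29 for ENO2 and -0.94 ± 0.32 for PKM (edgeR adjusted p = 0.00888 to 0.0428). No other member passed in these pairs, for which the shares of all genes are not given. Between A549 and PC3 cells, which shared a medium, no member passed the test and 0.758% of all genes did. The A549 minus PC3 difference was 1.10 for PGK1, with a 95% interval from 0.45 to 1.76, and 0.79 for LDHA, with an interval from 0.24 to 1.34. None of these comparisons between lines was run with the correction for GC content and transcript length, which reversed LDHB in HCT-116 cells. The mRNA GC content was 41.8% for LDHA and 42.8% for PGK1, against 52.7% to 56.6% for GAPDH, PGAM1, ENO1, ENO2 and PKM. Whether it bears on these differences was not tested.

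In normoxia all 8 members differed between lines, as did 93.5% of all genes tested. T47D cells had the lowest mean of every member, but PGAM1 was not told apart from A549 and HCT-116 cells, PKM not from HCT-116 cells (edgeR adjusted p = 0.362), and ENO1 not from PC3 cells (edgeR adjusted p = 0.0569, with 67.8% of all genes differing). Mean LDHA levels were 456 CPM in T47D, 1223 in HCT-116, 2839 in A549 and 3375 in PC3 cells, where A549 and PC3 were not told apart (edgeR adjusted p = 0.327, with 60.0% of all genes differing). The highest line mean was 7.40 times the lowest for LDHA in normoxia and 1.94 times in hypoxia. For PGK1 this range went from 3.02 to 1.43 times, for PGAM1 from 2.40 to 1.44, for GAPDH from 5.51 to 3.28, for PKM from 4.49 to 2.96 and for ENO1 from 3.25 to 2.90. ENO2 went the other way, from 5.40 times in normoxia to 9.98 times in hypoxia, between T47D and HCT-116 cells. The lines were thus closer in hypoxia for 6 members, a description for which no test was run. In RNA from whole cultures, a change in all cells and a change in some of them cannot be told apart.

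Per length, GAPDH was the most abundant member in 7 of 8 groups, with 740 CPM per kilobase in normoxic T47D and 8022 in hypoxic A549 cells. In hypoxic T47D cells ENO1 (3282 ± 414 CPM per kilobase, SD, n = 3) was first and GAPDH (2449 ± 172) was next, but with the union of exons as length GAPDH came first there as well. ENO2 was the lowest in A549, HCT-116 and PC3 cells, at 14.3 to 117 CPM per kilobase, and LDHB in T47D cells. LDHB ranked next to GAPDH in normoxic HCT-116 cells (1313 ± 326) and behind GAPDH, ENO1, PKM and LDHA in hypoxic ones (1114 ± 22.9). The first place depended on the scale. By CPM without length, GAPDH was first only in HCT-116 cells. PKM was then first in A549 and normoxic T47D cells, LDHA in PC3 cells and ENO1 in hypoxic T47D cells.

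After each line's mean was subtracted, the log2 levels of the 7 members other than LDHB followed each other over the 24 libraries, with Pearson's r from 0.853 to 0.991. The libraries share the 2 oxygen states, so that genes raised in hypoxia in all lines correlate. The gene most like PKM among 11270 genes was PGM1, phosphoglucomutase (r = 0.992), followed by GAPDH (0.991) and MPI, mannose phosphate isomerase (0.988). LDHA was closest to TPI1, triosephosphate isomerase (0.989), PGAM1 (0.985) and BNIP3 (0.981). GAPDH was closest to PKM, ALDOA and MPI, ENO1 to PGM1, PKM and MPI, and PGAM1 to LDHA, TPI1 and the glucose transporter SLC2A1. PGK1 was closest to WDR54 (0.976), LDHA and TMEM45A, and ENO2 to KCTD11 (0.986), ANGPTL4 and the histone demethylase KDM3A. LDHB is left out of this description, since its level in the 6 T47D libraries rests on 0 to 4 counts each.

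The other glycolysis enzymes, from hexokinases to triosephosphate isomerase with BPGM, moved with the members. Of those tested, 9 of 11 rose in A549, 9 of 11 in HCT-116, 8 of 12 in PC3 and 8 of 10 in T47D cells, against 17.6%, 23.3%, 16.6% and 6.55% of all genes. ALDOA, GPI and HK2 are among the genes that the study had picked partly for rising in these libraries. PFKL, PFKP and TPI1 are among those it reported as bound and raised in most of its lines. ALDOC, an aldolase, changed most, with log2 fold changes of 4.99 in A549, 4.43 in HCT-116, 1.21 in PC3 and 4.03 in T47D cells. It exceeded the change of each member in the same line, as did HK2, a hexokinase, in A549 and HCT-116 cells (4.60 and 3.61). BPGM, which makes 2,3-bisphosphoglycerate, fell in A549 (-0.71) and HCT-116 cells (-1.59), while PFKM fell in A549 (-0.33) and rose in HCT-116 cells (0.54).

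Genes of the fate of pyruvate and lactate were called in both directions. In A549 cells 8 of 22 rose and 5 fell, against 17.6% and 17.8% of all genes. In HCT-116 cells 8 of 23 rose and 8 fell, against 23.3% and 27.0%. In PC3 cells 4 of 23 rose and 1 fell, against 16.6% and 15.7%, and in T47D cells 3 of 21 rose and 2 fell, against 6.55% and 6.69%. SLC16A3, the lactate exporter MCT4, rose in all lines, with log2 fold changes of 3.01 in A549, 1.86 in HCT-116, 1.2 in PC3 and 3.36 in T47D cells. PDK1, a kinase that inhibits pyruvate dehydrogenase, rose by 2.64, 1.99 and 3.35 in A549, HCT-116 and T47D cells, whereas in PC3 cells its log2 fold change was 0.11 (SE 0.12, edgeR adjusted p = 0.496). PDK3 rose in all lines, and pyruvate carboxylase (PC) rose in A549, HCT-116 and PC3 cells by 1.14, 1.30 and 1.31. Of the alanine transaminases, which exchange pyruvate and alanine, GPT2 rose in HCT-116 (0.94) and PC3 cells (0.66), and GPT fell in HCT-116 cells (-1.98) from a mean of 0.441 CPM to 0.117 CPM.

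**Figure D4:**
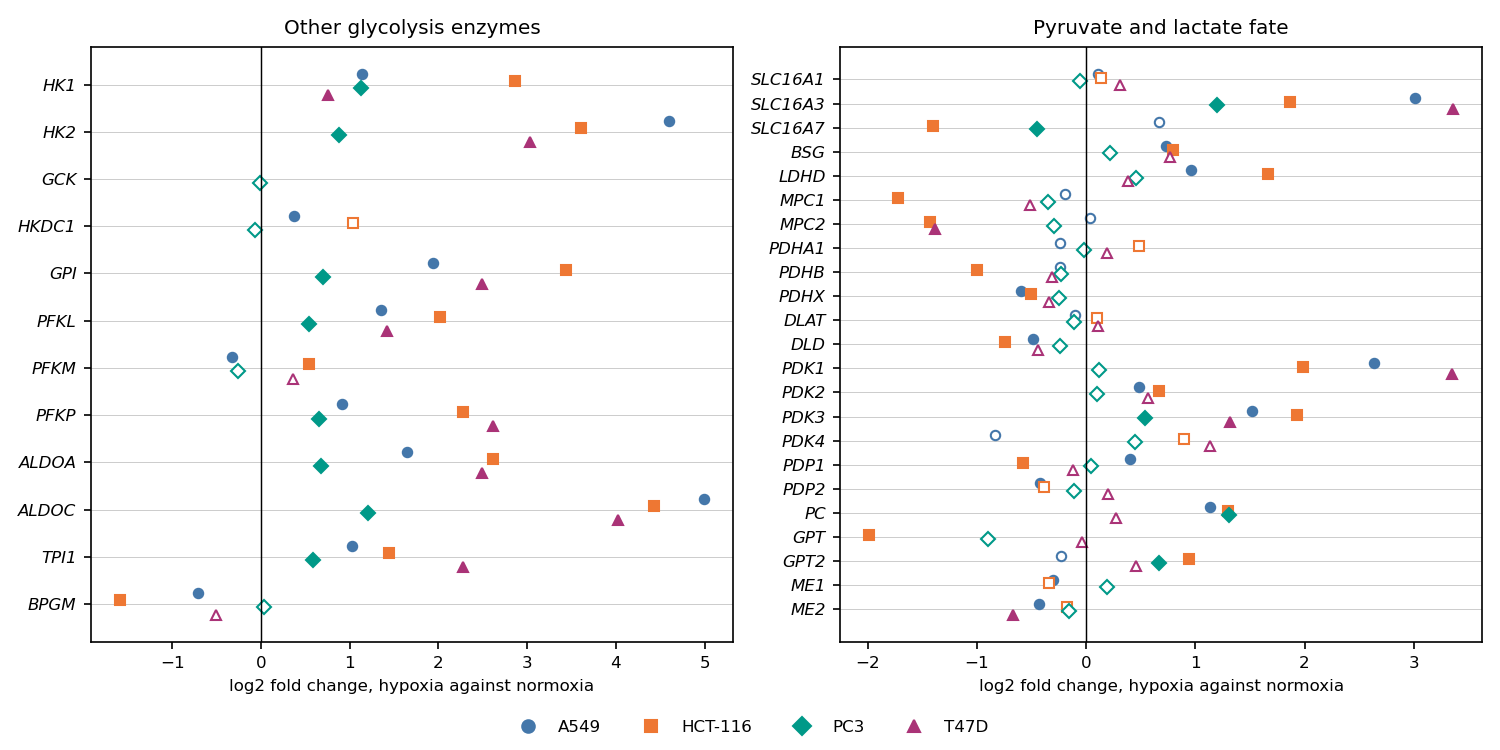
Hypoxia effect on the other glycolysis enzymes (left) and on genes of pyruvate and lactate fate (right). The horizontal axes are log2 fold changes of hypoxia against normoxia, symbols are lines, and filled symbols passed the test. ALDOC and HK2 lie farthest to the right on the left side, and SLC16A3 and PDK1 on the right side, with PC3 nearest to 0 for PDK1.

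Of the 10 paralogs of the members, 4 had enough counts to be tested in each line. PGAM4, a near-identical copy of PGAM1 that lies within PGK1 on the opposite strand, rose in A549, HCT-116 and T47D cells (log2 fold changes 0.94, 1.13 and 1.55), but its level was 0.763 to 3.99 CPM in the group means and reads of PGAM1 could add to it, which was not tested. In HCT-116 cells GAPDHS and ENO4 fell, both at or under 1.11 CPM in the group means. ENO3, the muscle enolase, passed the test in no line. Among 4 splicing factors that set the choice between the PKM1 and PKM2 exons, PTBP1 rose in A549 (0.36) and HCT-116 cells (1.04), HNRNPA2B1 rose in HCT-116 cells (0.70) and SRSF3 fell in HCT-116 cells (-1.27), while none of the 4 passed the test in PC3 or T47D cells (edgeR, with PTBP1 at adjusted p = 0.0670 and 0.257). Of the gluconeogenesis genes, 2 were tested in A549 and HCT-116 cells and 3 in PC3 and T47D cells, and only G6PC3 passed, in A549 (0.41) and HCT-116 cells (0.60). Among all genes tested, 17.6% rose in A549, 23.3% in HCT-116, 16.6% in PC3 and 6.55% in T47D cells. In the same order, 17.8%, 27.0%, 15.7% and 6.69% fell. With 2 to 4 genes tested per list and line, these counts are not read as results about a list.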

How the data were processed

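The authors trimmed reads with Trim Galore 0.3.3, aligned them to GRCh37 with HISAT2 2.05, excluded non-unique fragments with Picard 2.0.1 and counted on UCSC genes with HTSeq 0.5.4p3, whose strand setting is not given in the sources used here. The deposited values are whole-number counts per gene, not normalized. Here, edgeR 4.0.16 (R 4.3.3) was used with filterByExpr, TMM and the quasi-likelihood test in each line, and in fits of 24 libraries (line by hypoxia) and of 12 normoxic ones. Levels are CPM after TMM over 24 libraries. Lengths and promoters came from GENCODE 44 main transcripts on GRCh37. Isozyme ratios were tested by exact permutation (scipy 1.17.1). Fits were tested on simulated data.

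The genes and lists were chosen with earlier results of these data known. The study had itself chosen ENO1, LDHA, PGAM1, PGK1 and PKM, and from the lists ALDOA, GPI, HK2 and SLC16A3, partly from these libraries. It also placed GAPDH, and from the lists PDK1, PFKL, PFKP and TPI1, among the genes bound and raised in most of its lines. Other genes named are the 3 most correlated with each member except LDHB, and genes from the lists, mainly the 5 with the largest mean absolute change. Nothing in the labels says that replicates are separate cultures, so p values measure the spread between these samples, which may be technical. Replicate numbers are shared by the states in the labels. The deviations of same-numbered libraries correlated at r of 0.0892 to 0.341 in HCT-116, 0.112 to 0.158 in PC3 and 0.217 to 0.317 in T47D cells. In these lines every hypoxic library matched its own number best. In A549 cells r was -0.0271 to 0.263, and only replicate 1 matched its own number best. The main edgeR fits did not use the replicate numbers. Alternatives were DESeq2 1.42.0, other scalings, filters, thresholds and lengths, the replicate block, one fit, a GC content and length correction and left-out libraries. The ratio tests without T47D were added after seeing the data.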

Additional observations from a re-analysis of the deposited data

Results flagged for a closer look

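The hypoxia effect differed between the 4 lines by the interaction test of one edgeR fit of 24 libraries for 7 members. The adjusted p values were 0.00219 for GAPDH, 0.00132 for PGK1, 0.00605 for PGAM1, 5.96e-04 for ENO1, 0.00103 for ENO2, 0.00375 for PKM and 1.31e-05 for LDHA. The log2 fold changes of LDHA were 1.44 in A549, 1.91 in HCT-116, 0.61 in PC3 and 3.05 in T47D cells. The shift of the ENO2 to ENO1 ratio also differed between lines (exact permutation p = 0.00208), being above 0 in A549, HCT-116 and PC3 cells and -0.63 in T47D cells, where the states overlapped.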

How the results depend on the processing

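Of 31 fold changes of a member in a line, 21 kept their direction and call in all 18 alternatives, and 10 changed in at least 1. In PC3 cells the count of members called, 6, became 3 in one fit of all 24 libraries and 2 at a fold change over 1.5, while ENO1 in A549 cells lost its call in the one fit (edgeR adjusted p = 0.0787). The genes called higher in PC3 cells among all tested went from 2237 of 13466 to 867 of 16089 and 1019 of 13466 in these settings. The GC content and transcript length correction reversed LDHB in HCT-116 cells to 0.48, and to 0.50 with the replicate block (called, edgeR adjusted p = 0.0260), and in PC3 cells to 0.11 without and with the block (values 0.105 and 0.108). LDHB in PC3 cells passed the test as lower after scaling to total counts (-0.27, edgeR adjusted p = 0.0417) and without normoxic replicate 2 (edgeR adjusted p = 0.0403). The cause of these changes was not tested. The GC content and length correction was run only in the fits of single lines, not in the tests between lines. The replicate block alone changed no call of a member (8 called in A549, 7 in HCT-116, 6 in PC3 and 7 in T47D cells) and left 7 members with an effect that differed between lines. With the replicate block, exact sign flips gave p = 4.88e-04 for the LDHA to LDHB ratio, the smallest they can give, and p = 0.0459 for ENO2 to ENO1. In HCT-116, PC3 and T47D cells every hypoxic library correlated best with its own number, a hint from the data only, and in A549 cells 1 of 3 did.

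The count of members whose effect differed between lines ranged from 2 to 7 when a replicate number was left out. The range of the LDHA to LDHB shift between lines, 2.52 on the log2 scale, was 2.45 with a pseudocount of 5 and 1.41 without T47D, both past the threshold, and 1.65 to 3.84 without a replicate number. With T47D included, this range and its test rest on the pseudocount. The mean ENO2 to ENO1 shift was 0.47 to 0.59 without a replicate number, and its range between lines, 1.96, was then 1.90 to 2.02. The precision of LDHB in T47D cells is limited by its 0 to 4 counts a library, and every group holds 3 libraries.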
